A study of Mus musculus with 12 samples.

Results

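Fgf23 and 8 genes known to control its transcription or the processing of its protein were followed across all 4 groups of the series. They are the rows of the deposited count table whose gene name is Fgf23, Galnt3, Phex, Fam20c, Furin, Pcsk5, Fgfr1, Nr4a2 or Hif1a, 9 of 56691 rows. FGF23 is a hormone secreted mainly by osteocytes and osteoblasts that makes the kidney excrete phosphate and lowers circulating 1,25-dihydroxyvitamin D, which in turn raises FGF23. The protein circulates intact or cut into inactive pieces. GALNT3 attaches a sugar that shields the cleavage site, the kinase FAM20C phosphorylates a residue beside it and so blocks that sugar, and furin and related proprotein convertases make the cut. Loss of PHEX raises FGF23 in X-linked hypophosphataemia, and loss of FAM20C raises it in a related disorder. FGFR1 signalling in bone cells, the orphan nuclear receptor NR4A2 (Nurr1) and the hypoxia factor HIF1A have each been described as raising Fgf23 transcription.

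The libraries came from MC3T3-E1, a mouse calvarial pre-osteoblast cell line of wild-type genotype that forms mineralized matrix in culture. All 4 groups had been kept for 28 days in a medium that favours bone formation, which held ascorbic acid (50 µg/ml), dexamethasone (0.1 µM) and beta-glycerophosphate (BGP, which supplies phosphate) at 10 mM. From day 27, for 24 h, 1 group received 100 µM 25-hydroxyvitamin D (25(OH)D, from which cells make the active hormone) with 100 µM ZK191784. Another received the same 25(OH)D with a further 4 mM BGP, another that 25(OH)D alone, and the control cells were left untreated. The doses are as labelled, and their unit rests on the labels alone. Each group had 3 libraries of 3' mRNA sequencing (QuantSeq), and no group received ZK191784 or the added BGP without 25(OH)D. Whether replicates were separate cultures is not labelled, and p-values therefore speak only of the spread among these 12 libraries. The series title asks how FGF23 is regulated by 25(OH)D and by 1,25-dihydroxyvitamin D made in osteocyte-like cells.

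Library depth ran from 3318723 to 5170980 deposited counts. The 10 osteoblast markers examined were all detected in each group, with summed levels of 74536 to 85509 CPM (counts scaled by library size) with ZK191784, 71523 to 78757 with BGP, 71301 to 79349 with 25(OH)D and 127290 to 142928 in control. Similar sums do not mean similar markers, since Spp1 moved against Sparc within them. In the same groups Spp1 averaged 11082, 55717, 51551 and 3395 CPM, and Sparc 37406, 10844, 12553 and 71819 CPM. The 10 osteocyte markers were also detected in each group, at 337 to 438, 227 to 251, 209 to 250 and 372 to 547 CPM in the same groups. Most of these sums came from Cd44, Pdpn and Irx5 (232, 99.6 and 84.8 CPM in control). Other osteocyte markers were near the floor, with 1 summed count of Ptprz1 and 2 of Dkk1 in control. With 25(OH)D, Mepe and Dkk1 had 2 summed counts each. Summed markers of macrophages and blood cells were 218 to 402, 185 to 393, 193 to 360 and 218 to 464 CPM. Those of endothelium were 24.8 to 56.5, 22.9 to 49.6, 17.1 to 43.6 and 26.2 to 62.6 CPM, with Cdh5 at 0 in all groups. Within each group the libraries also differed in the log2 ratio of ribosomal protein gene counts to those of pseudogenes and predicted Gm-numbered genes, which ran between −1.88 and −0.53 over the 12 libraries. Levels below are CPM scaled by the trimmed mean of M-values (TMM), as mean ± SD of 3 libraries, and a gene was called when its p, adjusted over 14394 tested genes, was under 0.05. In bulk libraries, fewer cells of a type and less RNA per cell cannot be told apart.

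The promoter windows of Fgf23, Phex and Fam20c are shown because these members carry the differences described. Each runs from 250 bases before to 50 bases after the annotated start, 5′ to 3′ along the gene (RefSeq, GRCm38.p6, a different build from that of the counts). Fgf23 lies on the plus strand at chr6:127072652-127072951, Phex on the minus strand at chrX:157415237-157415536 and Fam20c on the plus strand at chr5:138754831-138755130. Capitals mark matches on either strand to the nuclear receptor half-site AGGTCA or its variants GGGTCA and also GGTTCA, or to the hypoxia element core ACGTG or its variant GCGTG.
Fgf23: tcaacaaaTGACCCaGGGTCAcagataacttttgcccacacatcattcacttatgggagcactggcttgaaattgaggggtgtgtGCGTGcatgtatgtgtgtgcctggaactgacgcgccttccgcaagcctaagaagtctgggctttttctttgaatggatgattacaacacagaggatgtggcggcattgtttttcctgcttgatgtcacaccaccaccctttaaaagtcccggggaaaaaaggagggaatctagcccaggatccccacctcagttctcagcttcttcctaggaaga
Phex: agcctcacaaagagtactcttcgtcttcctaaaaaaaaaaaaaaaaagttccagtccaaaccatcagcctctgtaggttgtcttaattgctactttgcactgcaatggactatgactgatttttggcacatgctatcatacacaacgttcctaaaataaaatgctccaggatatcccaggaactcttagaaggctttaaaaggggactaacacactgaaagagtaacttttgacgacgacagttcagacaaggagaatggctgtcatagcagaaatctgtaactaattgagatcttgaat
Fam20c: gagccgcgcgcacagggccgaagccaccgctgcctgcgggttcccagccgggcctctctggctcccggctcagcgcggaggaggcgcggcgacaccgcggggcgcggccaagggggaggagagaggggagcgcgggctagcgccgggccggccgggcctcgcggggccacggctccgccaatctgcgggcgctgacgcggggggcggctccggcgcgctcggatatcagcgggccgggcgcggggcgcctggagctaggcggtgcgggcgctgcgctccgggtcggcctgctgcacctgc
In the Fgf23 window GGGTCA occurred at −242 on the minus strand and at −235 on the plus strand, counted from the start, as a palindromic pair with 1 base between. GCGTG occurred there at −165. The Phex and Fam20c windows held none of the 5 motifs, nor did that of Pcsk5. Among 32851 windows in the RefSeq table, 13.7% held GGGTCA, 16.3% AGGTCA, 10.4% GGTTCA, 19.6% ACGTG and 32.4% GCGTG. The direct repeat of half-sites with 3 bases between, the form typical of vitamin D receptor sites, was in 10 of them (0.0304%) and in none of the 8 members matched by symbol. The match says only which letters stand in these windows.

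Fgf23 was counted more often with 25(OH)D and BGP than in any other group, but it was rare throughout. With BGP added to 25(OH)D the 3 libraries held 7, 4 and 7 counts, against 1, 3 and 3 with 25(OH)D alone. With ZK191784 added they held 0, 1 and 1 counts, and the control libraries held 0, 1 and 0. In CPM the BGP libraries stood at 1.96, 0.856 and 1.35, and the 25(OH)D libraries at 0.267, 0.723 and 0.792. Every BGP library was above every 25(OH)D library on this scale, though the nearest differ by 1 count, and the ZK191784 and control libraries overlapped. Mean levels were 0.153 ± 0.133 CPM with ZK191784, 1.39 ± 0.555 with BGP, 0.594 ± 0.285 with 25(OH)D and 0.0703 ± 0.122 in control.

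The counts of Fgf23 summed to 2 with ZK191784 (exact 95% Poisson interval 0.242 to 7.22), 18 with BGP (10.7 to 28.4), 7 with 25(OH)D (2.81 to 14.4) and 1 in control (0.0253 to 5.57). A single library with 0 counts has an upper limit of 3.69 counts, which is 0.755 CPM in ZK191784 library 1 and 0.885 CPM in control library 1. These limits reach into the range of the 25(OH)D libraries. The intervals cover counting error only, and reads without molecular identifiers are not independent molecules. Over the 4 groups the levels differed by more than most reassignments of libraries to groups gave (exact permutation p = 0.000455 over 369600 assignments). That p is for Fgf23 alone and is not adjusted over other genes.

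Between pairs of groups, 25(OH)D gave a ratio of summed Fgf23 counts to control of 7.87 (95% exact binomial interval 1.01 to 355). BGP with 25(OH)D stood at 17.6 times the control (2.78 to 733) and at 2.24 times 25(OH)D alone (0.891 to 6.34). ZK191784 with 25(OH)D stood at 0.245 of 25(OH)D alone (0.0248 to 1.28), at 0.109 of 25(OH)D with BGP (0.0123 to 0.457) and at 1.92 times the control (0.100 to 114). The intervals of 3 of these 6 ratios held 1, namely BGP over 25(OH)D, ZK191784 over 25(OH)D and ZK191784 over control. That of 25(OH)D over control also held 1 without control library 1 (lower limit 0.689) or 3 (0.687) or without 25(OH)D library 2 (0.690) or 3 (0.658). Without ZK191784 library 1 the ratio of ZK191784 was 0.381 to 25(OH)D alone, 0.170 to 25(OH)D with BGP and 3.00 to control. That of BGP over 25(OH)D had a lower limit of 1.01 without BGP library 2. With 3 libraries against 3, the exact permutation test (2-sided) cannot give a p below 0.1, and it gave 0.1 in 5 of the 6 pairs and 0.4 for ZK191784 against control. For BGP against 25(OH)D alone the exact permutation test gave p = 0.2 when deposited totals replaced TMM library sizes, since the groups then overlapped. In an edgeR quasi-likelihood fit of 36479 genes with no filter on low counts, Fgf23 was not called in any of the 5 comparisons fitted, and its lowest adjusted p was 0.161, for BGP against control (log2 3.78 ± 1.41, SE).

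**Figure D1:**
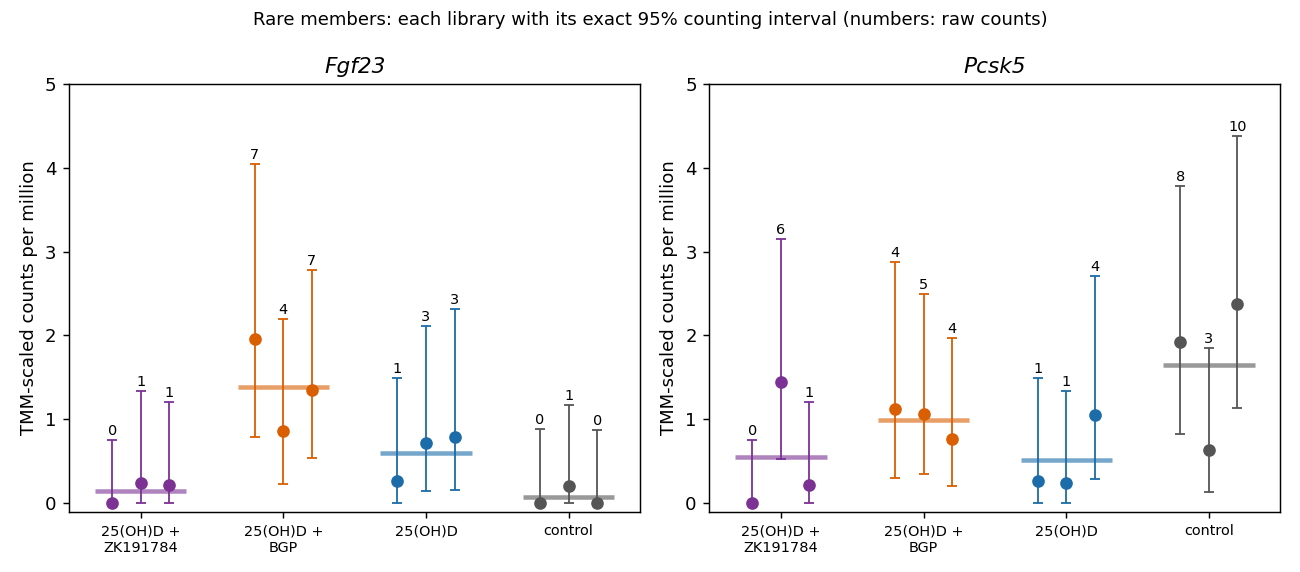
TMM-scaled CPM of Fgf23 (left) and Pcsk5 (right) in each of the 12 libraries, by group; points are libraries with exact 95% counting intervals, numbers are raw counts and thick lines are group means. The Fgf23 counts of 7, 4 and 7 with BGP stand above the others, while those of Pcsk5 overlap between groups.

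Among the 5 genes whose profile over the 4 groups was closest to that of Fgf23, Osmr, the oncostatin M receptor gene, differed least (mean absolute difference 0.224 on the centred log2 CPM scale, 4 groups, 11398 genes ranked). It stood at 0.852 ± 0.534 CPM with ZK191784, 6.11 ± 3.29 with BGP, 3.90 ± 3.72 with 25(OH)D and 0.766 ± 0.605 in control. The next were Cdc42ep4 (0.272), Itga8, an integrin subunit gene (0.274), Npr3, the natriuretic peptide clearance receptor gene (0.330), and Vtn, the vitronectin gene (0.340). The Fgf23 profile itself rests on few counts.

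Among the members that passed the filter on low counts (7 of 9), Phex and Fam20c were called in the comparison of 25(OH)D with control, Phex lower and Fam20c higher. Of all tested genes 8.68% were called there, 4.76% higher and 3.93% lower. Phex encodes a membrane endopeptidase of osteoblasts and osteocytes. It stood at 1.60, 4.58 and 1.06 CPM in the 25(OH)D libraries, against 20.6, 15.8 and 21.6 CPM in control. The groups lay far apart, with the highest 25(OH)D library below the lowest control. The log2 level of Phex fell by 2.97 (SE 0.48, 95% interval −4.0 to −1.93), and passed edgeR's quasi-likelihood test (adjusted p = 0.00143).

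Fam20c, the Golgi kinase of secreted phosphoproteins, moved the other way. Its libraries stood at 160, 180 and 222 CPM with 25(OH)D, against 79.6, 96.7 and 59.0 CPM in control, again without overlap. It rose 2.39-fold (log2 1.26 ± 0.19, SE, 95% interval 0.85 to 1.66, edgeR adjusted p = 0.000850). Both calls, Phex and Fam20c, were made in each setting tried for this comparison. The median log2 difference over the 7 members was −0.21 and that over all tested genes was −0.05.

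The fall of Phex stood beside lower osteoblast and osteocyte markers. Of 10 tested osteoblast markers 7 fell and 2 rose with 25(OH)D, and of 8 tested osteocyte markers 3 fell. With ZK191784 against 25(OH)D alone, 6 of the 10 osteoblast markers were called higher and 1 lower (3.53% of all tested genes were called there). Summed adipocyte markers, 7 of 7 detected, were 1.58 to 6.15 CPM with 25(OH)D and 8.43 to 9.99 CPM in control. Most of that gap was Fabp4, the only 1 frequent enough to test (10 summed counts with 25(OH)D, 76 in control). Adipoq went the other way (8 and 1). Summed chondrocyte markers, 5 of 5 detected, were 68.1 to 152 CPM with 25(OH)D and 99.5 to 245 CPM in control. Among them Col2a1 averaged 1.21 CPM with 25(OH)D and 31.7 in control, and Sox9 109 and 122. Matn3 lay higher with 25(OH)D (22 summed counts, 4 in control). The part of these differences in the Phex and Fam20c results was not tested.

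With BGP added to 25(OH)D, Phex and Fam20c were called against control as they were with 25(OH)D alone. In that comparison 8.25% of all tested genes were called, 3.9% higher and 4.35% lower, and 2 of the 7 tested members. Phex stood at 4.77, 1.93 and 2.31 CPM with BGP and fell by 2.71 (SE 0.46) on the log2 scale against control (edgeR adjusted p = 0.00240). Fam20c stood at 267, 216 and 225 CPM with BGP and rose 3.01-fold against control (log2 1.59 ± 0.19, adjusted p = 0.000165). These 2 comparisons share their control libraries.

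Against 25(OH)D alone, the added BGP gave 0 called members by edgeR or DESeq2, with 0 at an unadjusted p under 0.05, and 0% of all tested genes were called. The edgeR test left 268 genes at an unadjusted p under 0.05, and DESeq2 also called 0 genes. Fam20c averaged 236 ± 27.4 CPM with BGP and 187 ± 31.6 CPM with 25(OH)D alone, with overlapping libraries (log2 0.33 ± 0.18, 95% interval −0.07 to 0.73). Phex averaged 3.00 ± 1.54 CPM with BGP and 2.41 ± 1.90 CPM with 25(OH)D (log2 0.26 ± 0.52, adjusted p = 1.000), on counts of 4 to 19 per library.

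With ZK191784 added to 25(OH)D, Fam20c fell and Phex lay higher without passing the test. Of all tested genes 3.53% were called in this comparison, 1.42% higher and 2.11% lower, and of the 7 members Fam20c alone. Fam20c stood at 103, 102 and 103 CPM in the ZK191784 libraries, all below the 25(OH)D libraries. The log2 level fell by 0.87 (SE 0.19, 95% interval −1.27 to −0.47, edgeR adjusted p = 0.0201). That call was lost without 25(OH)D library 2 (adjusted p = 0.0734) or 3 (0.0727), or without ZK191784 library 1 (0.0940), 2 (0.0969) or 3 (0.0794).

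Phex stood at 10.9, 9.16 and 6.96 CPM with ZK191784, above every 25(OH)D library. The log2 difference was 1.87 ± 0.48 (95% interval 0.82 to 2.91, edgeR adjusted p = 0.0567). It passed with DESeq2 (adjusted p = 0.00338), with no filter on low counts (0.00169) and when that library ratio entered as a covariate (0.000626). Phex did not pass with RLE scaling, a minimum of 2 CPM in 3 libraries, the compared groups alone or a replicate block. Without 25(OH)D library 2, the 25(OH)D library with most Phex, the log2 difference was 2.74 (adjusted p = 0.0134). Leaving out any other of the compared libraries did not bring the adjusted p under 0.05.

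Against control, the combination with ZK191784 gave 0 called members by edgeR or DESeq2, with 1 at an unadjusted p under 0.05. Of all tested genes 0.723% were called there (0.507% higher and 0.215% lower), with 960 genes at an unadjusted p under 0.05 by edgeR. DESeq2 called 264 genes. Phex averaged 8.99 ± 1.95 CPM with ZK191784 and 19.4 ± 3.12 CPM in control, with all libraries lower (log2 −1.10 ± 0.42, 95% interval −2.01 to −0.19, adjusted p = 0.536). Fam20c averaged 102.6 ± 0.544 CPM with ZK191784 and 78.4 ± 18.9 CPM in control, with all libraries higher (log2 0.39 ± 0.19, adjusted p = 0.789). With the library ratio as a covariate both were called in those directions (adjusted p = 0.0191 for Phex and 0.00896 for Fam20c). By library, levels of Phex ran, from low to high, from 25(OH)D and 25(OH)D with BGP, which overlapped, through 25(OH)D with ZK191784 to control. In the main edgeR fit the ZK191784 group was not called for Phex against 25(OH)D alone (adjusted p = 0.0567) or control (0.536). Over the 4 groups at once 7.5% of all tested genes were called, and Phex and Fam20c among the members (adjusted p = 0.00205 and 0.000327).

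**Figure D2:**
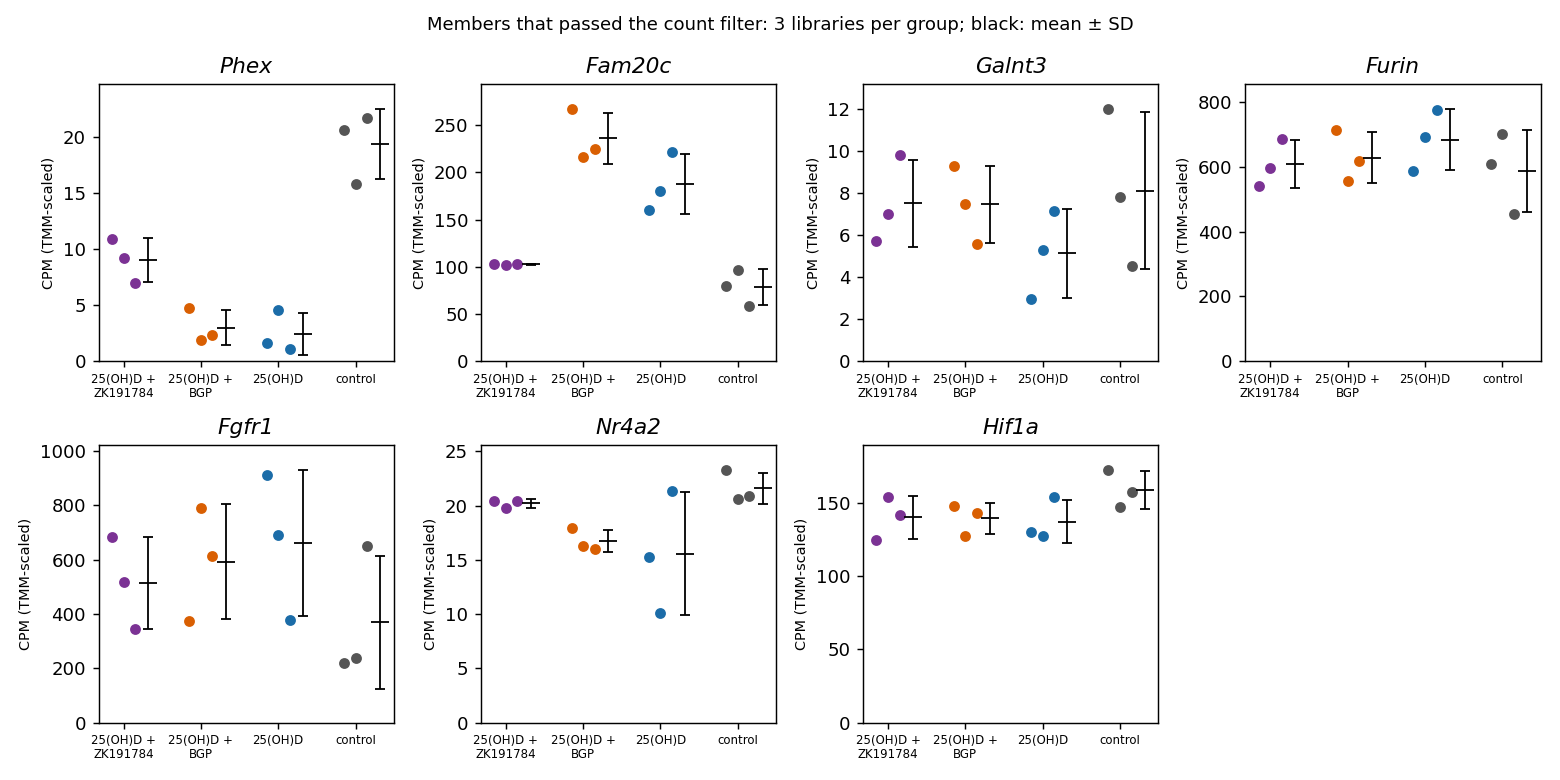
TMM-scaled CPM of the 7 members that passed the count filter, in 3 libraries of each group, with group mean ± SD in black. Phex is lowest with 25(OH)D alone and with BGP, Fam20c is highest there, and the other 5 overlap between 25(OH)D and control.

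The genes whose levels over the 12 libraries were most like those of Phex were Gper1 (mean absolute difference 0.357 on the centred log2 CPM scale, 11318 genes ranked), Gadd45g (0.361), Pcolce2 (0.366), Myom1 (0.371) and Pycr1 (0.382). Gper1, a membrane oestrogen receptor gene, stood at 14.7 ± 3.38 CPM with ZK191784, 3.72 ± 0.647 with BGP, 3.58 ± 0.613 with 25(OH)D and 35.9 ± 6.35 in control. Most like Fam20c were Clint1 (0.168), Lmo4 (0.172), Rhoc (0.183), Mad1l1 (0.190) and Aqp1 (0.196). Clint1, a gene of clathrin-coated vesicle traffic, stood at 218 ± 14.8 CPM with ZK191784, 481 ± 7.38 with BGP, 428 ± 32 with 25(OH)D and 211 ± 37.2 in control.

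Galnt3, the glycosyltransferase that protects intact FGF23, was not called in any comparison. Its libraries stood at 5.73, 6.99 and 9.78 CPM with ZK191784, 9.26, 7.49 and 5.59 with BGP, 2.94, 5.30 and 7.13 with 25(OH)D and 12.0, 7.80 and 4.52 in control. The spread within each group was as wide as the gaps between groups. The 25(OH)D group had the lowest mean, with a log2 difference from control of −0.66 ± 0.42 (95% interval −1.58 to 0.26, edgeR adjusted p = 0.456). Both combinations lay above 25(OH)D alone by similar amounts, ZK191784 by 0.55 ± 0.42 and BGP by 0.53 ± 0.43 on the log2 scale, and neither passed (adjusted p = 0.800 and 1.000).

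Furin, the ubiquitous convertase that cuts FGF23, averaged 608 ± 73.9 CPM with ZK191784, 629 ± 79.1 with BGP, 685 ± 94.7 with 25(OH)D and 588 ± 126 in control. The groups overlapped throughout. The log2 difference between 25(OH)D and control was 0.22 ± 0.18, with a 95% interval of −0.17 to 0.61 (edgeR adjusted p = 0.566). With the library ratio as a covariate it was 0.32 (adjusted p = 0.0230). Within each group Furin was lowest in the library with the highest ratio.

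Pcsk5, a related convertase that can cut FGF23 in vitro, was too rare for the filter. It was counted 0, 6 and 1 times with ZK191784, 4, 5 and 4 times with BGP, 1, 1 and 4 times with 25(OH)D and 8, 3 and 10 times in control. Control held the most counts, yet each treated group overlapped it. The summed counts were 7, 13, 6 and 21 in the same groups. The ratio to control was 0.321 with 25(OH)D (95% exact interval 0.106 to 0.822, exact permutation p = 0.2) and 0.321 with ZK191784 (0.115 to 0.783, exact permutation p = 0.2). With BGP it was 0.605 (0.278 to 1.27, exact permutation p = 0.4). Without control library 3 the intervals of 25(OH)D and of ZK191784 over control held 1 (upper limits 1.23 and 1.18). They also did so without 25(OH)D library 1 (1.07) or 2 (1.13), and without ZK191784 library 1 (1.22) or 3 (1.06). Without 25(OH)D library 3 the first ratio was 0.158, without ZK191784 library 1 or 2 the second was 0.50 or 0.0659, and that of BGP had an upper limit of 0.973 without control library 2. Over the 4 groups the exact permutation p was 0.194.

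Fgfr1, a receptor through which FGF signalling reaches bone cells, varied more between libraries of 1 group than between groups. It stood at 682, 519 and 343 CPM with ZK191784, 373, 791 and 615 with BGP, 912, 692 and 378 with 25(OH)D and 218, 237 and 651 in control. In each of the 4 groups the library with the highest ribosomal-to-pseudogene ratio also held the most Fgfr1. In control this was library 3, at a log2 ratio of −0.66 beside −1.77 and −1.88 in libraries 1 and 2. The log2 difference of 25(OH)D from control was 0.84 ± 0.45 and did not pass (edgeR adjusted p = 0.349).

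With the ratio as a covariate Fgfr1 was called higher in all 3 treated groups against control. The log2 difference was then 0.41 with ZK191784 (adjusted p = 0.0313), 0.51 with BGP (0.00131) and 0.69 with 25(OH)D (1.99e-05). Without control library 3 the difference of 25(OH)D from control was 1.55 (adjusted p = 0.0303) with no covariate.

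**Figure D3:**
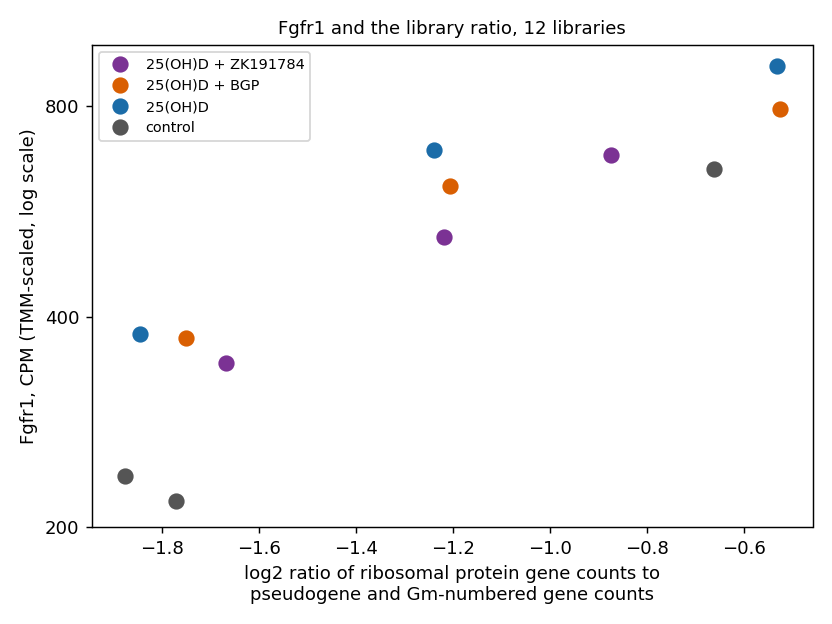
Fgfr1 in TMM-scaled CPM (log axis) against each library's log2 ribosomal-to-pseudogene ratio, 12 libraries coloured by group. Within each group Fgfr1 is highest in the library with the highest ratio, and the control libraries at −1.77 and −1.88 are the lowest of all.

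Nr4a2, an immediate-early nuclear receptor that acts on the Fgf23 promoter in bone cells, averaged 20.2 ± 0.397 CPM with ZK191784, 16.7 ± 1.06 with BGP, 15.6 ± 5.64 with 25(OH)D and 21.6 ± 1.43 in control. All 3 libraries with ZK191784, at 19.8 to 20.5 CPM, and all 3 with BGP, at 16.0 to 18.0 CPM, lay below all control libraries, at 20.7 to 23.3 CPM, while those with 25(OH)D alone, at 15.2, 10.1 and 21.4 CPM, overlapped control. The log2 difference from control was −0.10 ± 0.24 with ZK191784 (edgeR adjusted p = 0.998), −0.37 ± 0.24 with BGP (0.510) and −0.47 ± 0.24 with 25(OH)D (0.322).

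Hif1a, whose protein is mainly controlled by oxygen-dependent breakdown, averaged 140 ± 14.9 CPM with ZK191784, 140 ± 10.7 with BGP, 137 ± 14.6 with 25(OH)D and 159 ± 12.7 in control. Its log2 differences from control lay between −0.21 and −0.18 in the 3 treated groups, and none passed. The 95% interval for 25(OH)D against control was −0.51 to 0.09.

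**Figure D4:**
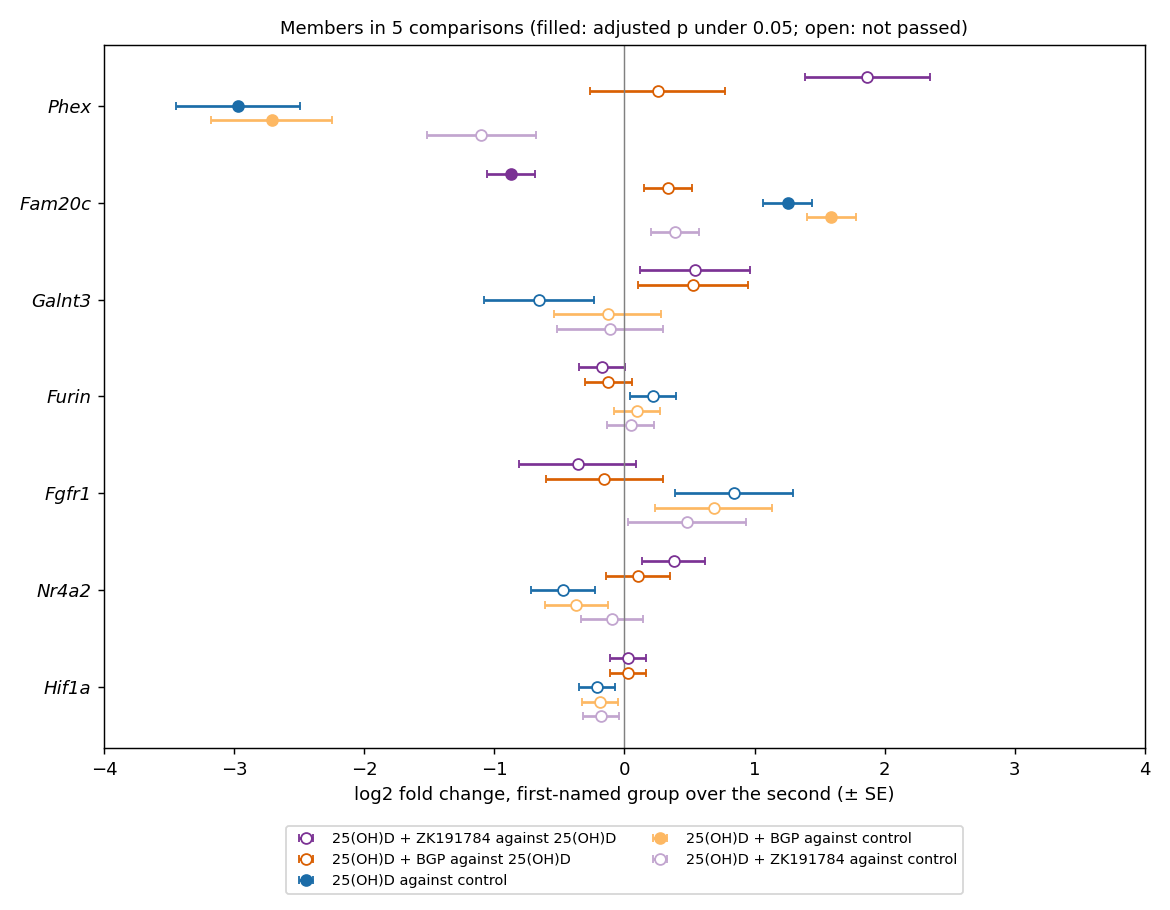
Log2 fold changes (± SE) of the 7 tested members in 5 comparisons, first-named group over the second; filled points passed an adjusted p of 0.05. Phex and Fam20c are the members with filled points, at −2.97 and 1.26 for 25(OH)D against control.

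Other genes that act on FGF23 or signal around it were taken as 8 lists with 88 genes, of which 72 were tested. Against control, 1 rose and 2 fell with ZK191784 added (0.723% of all tested genes were called there), 10 rose and 6 fell with BGP added (8.25% of all) and 9 rose and 5 fell with 25(OH)D (8.68% of all). Against 25(OH)D alone, ZK191784 gave 2 higher and 4 lower (3.53% of all tested genes were called), and BGP gave 0 by edgeR, with 5 at an unadjusted p under 0.05 and 0 by DESeq2. The median log2 difference of the 72 genes was −0.02 for 25(OH)D against control, close to the −0.05 of all tested genes. The list holds Vdr and other genes already known to respond in these libraries, so it gives no independent evidence of direction.

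Among O-glycosylation, kinase and convertase genes (10 tested), 2 rose and 1 fell with 25(OH)D against control. Pcsk6, the PACE4 convertase gene, stood at 0.535, 0.964 and 0.528 CPM with 25(OH)D, against 5.04, 7.59 and 12.6 CPM in control. Its log2 level fell by 3.57 (SE 0.46, edgeR adjusted p = 0.000290). With ZK191784 it stood at 5.73, 5.54 and 5.87 CPM, a rise of 3.01 ± 0.47 over 25(OH)D alone (adjusted p = 0.00259). With BGP it fell by 2.54 (SE 0.41) against control (adjusted p = 0.00163).

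C1galt1, which builds the core of mucin-type O-glycans, had the opposite pattern. It stood at 48.9, 36.9 and 34.9 CPM with 25(OH)D, against 15.8, 19.8 and 15.7 CPM in control (log2 1.23 ± 0.22, edgeR adjusted p = 0.00307). With ZK191784 it averaged 20.9 ± 3.27 CPM and fell by 0.94 (SE 0.22) below 25(OH)D alone, a call (adjusted p = 0.0303) that was lost without 5 of the 6 libraries in turn (up to 0.168) and when those groups were fitted alone (0.0627). It rose by 1.21 ± 0.22 with BGP against control (adjusted p = 0.00362). Galnt2, a GALNT3 paralog, rose by 0.58 ± 0.14 with 25(OH)D (adjusted p = 0.0217), a call lost without 4 of 6 libraries in turn (up to 0.0891), with no filter on low counts (0.231) and with those groups fitted alone (0.139). Fam20a, the pseudokinase partner of FAM20C, rose by 1.80 ± 0.41 with BGP against control (adjusted p = 0.0143), and lost that call without control library 2 (0.0569) or BGP library 3 (0.0598).

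Among mineral-linked local regulators (7 tested), 2 rose and 1 fell with 25(OH)D and 3 rose and 1 fell with BGP added, each against control. Enpp1, which makes the mineralization inhibitor pyrophosphate and whose loss raises FGF23, stood at 8.39, 10.6 and 10.0 CPM with ZK191784, 26.4, 33.8 and 29.5 with BGP, 24.1, 15.2 and 16.6 with 25(OH)D and 4.56, 2.74 and 5.0 in control. The 4 groups did not overlap at any step. Enpp1 rose by 2.87 ± 0.28 on the log2 scale with BGP against control (edgeR adjusted p = 4.06e-05) and by 2.18 ± 0.28 with 25(OH)D (0.000310). The differences from 25(OH)D alone, 0.68 ± 0.25 for BGP (adjusted p = 1.000) and −0.94 ± 0.26 for ZK191784 (0.0815), did not pass.

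Dmp1, an osteocyte matrix protein gene whose loss raises FGF23, was highest with BGP. It stood at 3.48, 4.10 and 3.48 CPM with ZK191784, 7.01, 13.5 and 10.0 with BGP, 4.28, 3.62 and 1.32 with 25(OH)D and 1.20, 2.32 and 4.04 in control. Dmp1 rose by 2.01 ± 0.48 with BGP against control (edgeR adjusted p = 0.0187), a call lost without 4 of 6 libraries in turn (up to 0.0796) and with those groups fitted alone (0.0520). Against 25(OH)D alone the difference was 1.72 ± 0.47 and did not pass over all genes (unadjusted p = 0.00313, adjusted p = 1.000).

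Mepe, a matrix phosphoglycoprotein gene of osteocytes, was counted 0, 0 and 2 times with 25(OH)D and 3, 0 and 0 times with BGP, against 16, 25 and 22 times in control. The ratio of summed counts to control was 0.0357 with 25(OH)D (95% exact interval 0.00423 to 0.134) and 0.0465 with BGP (0.00935 to 0.142). Both falls were called by edgeR (adjusted p = 0.00967 and 0.0114), the first lost without 25(OH)D library 2 (0.0608) and the second without BGP library 2 (0.0531) or 3 (0.0655). With ZK191784 it was counted 13, 13 and 9 times, 15 times the level of 25(OH)D alone by summed counts (95% exact interval 3.85 to 129). That interval covers counting error only, and the edgeR fit did not call this difference (log2 3.70 ± 1.02, adjusted p = 0.0767). Ank, a gene of pyrophosphate export, rose by 1.21 ± 0.21 with BGP (adjusted p = 0.00301) and by 0.78 ± 0.21 with 25(OH)D against control (0.0396, lost without 4 of 6 libraries in turn, up to 0.166, and with those groups fitted alone, 0.0828).

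**Figure D5:**
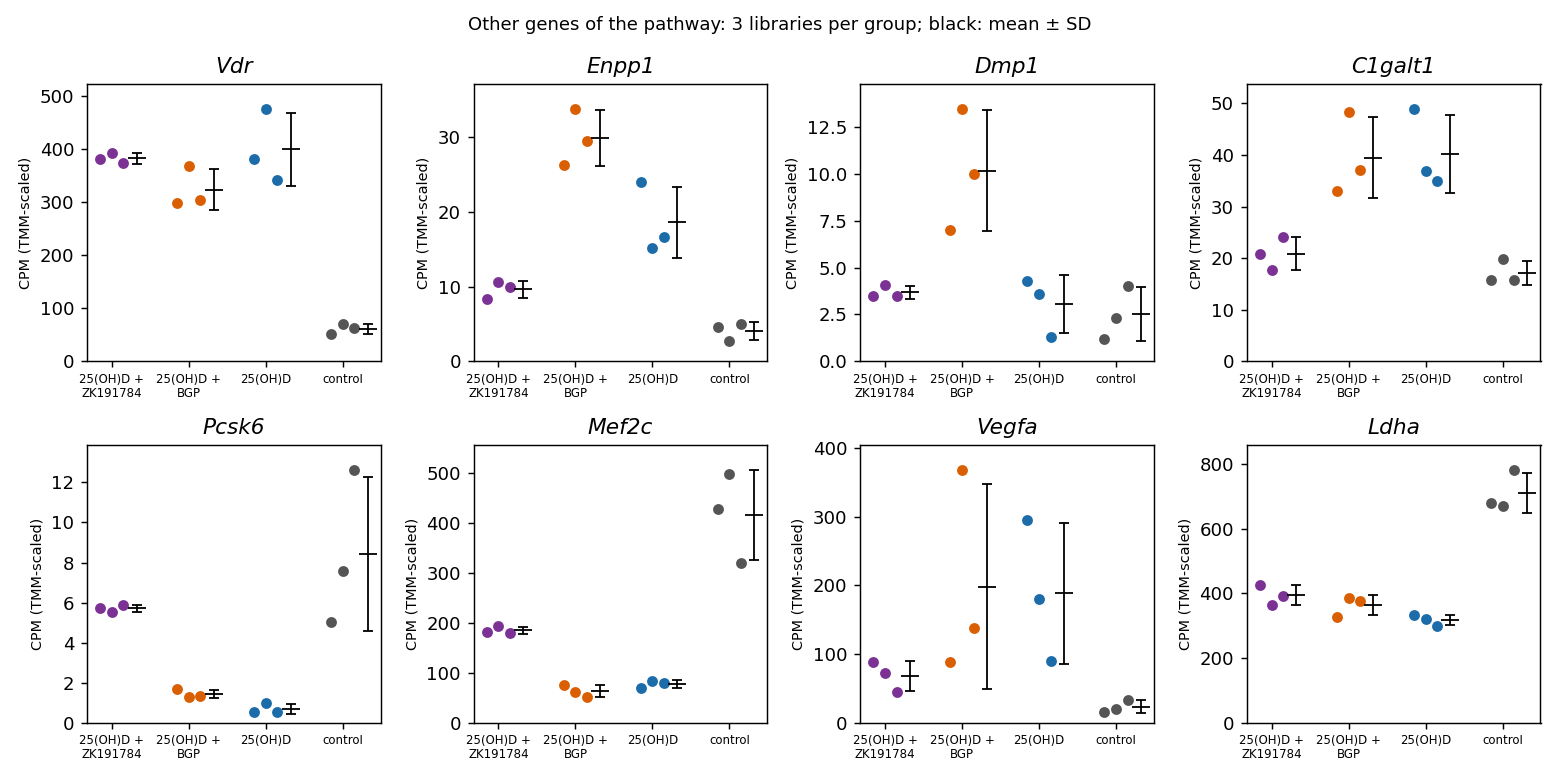
TMM-scaled CPM of 8 other genes of the pathway in 3 libraries of each group, with group mean ± SD in black. Pcsk6 and Mef2c are lowest with 25(OH)D alone and with BGP, C1galt1 is highest there, Dmp1 is highest with BGP, and Vdr is high in all 3 treated groups.

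Among nuclear receptors, calcium entry and kinase genes (15 tested), 2 rose and 2 fell with 25(OH)D against control, 2 rose and 3 fell with BGP and 1 rose and 1 fell with ZK191784. Vdr, the receptor through which active vitamin D induces Fgf23, rose in all 3 treated groups. Its libraries stood at 381, 392 and 373 CPM with ZK191784 and 298, 369 and 303 with BGP. They stood at 381, 476 and 342 CPM with 25(OH)D and at 50.8, 70.6 and 61.9 in control. Unlike Fam20c, Vdr did not pass between ZK191784 and 25(OH)D alone (log2 −0.06 ± 0.16, edgeR adjusted p = 0.972), and the difference between these 2 genes was not tested.

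Mef2c, a transcription factor gene of bone cells, stood at 181, 192 and 180 CPM with ZK191784, 74.9, 61.0 and 51.1 with BGP, 69.3, 83.7 and 79.5 with 25(OH)D and 428, 497 and 320 in control. It fell by 2.42 (SE 0.19) with 25(OH)D against control (edgeR adjusted p = 5.37e-06) and rose by 1.25 ± 0.18 with ZK191784 against 25(OH)D alone (0.00180). Against control it still fell by 1.17 (SE 0.18) with ZK191784 (adjusted p = 0.0100), a call lost without 4 of 6 libraries in turn (up to 0.0674) and with those groups fitted alone (0.0606). With BGP it fell by 2.74 (SE 0.19) against control (adjusted p = 2.52e-06).

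Pth1r, the parathyroid hormone receptor gene, fell by 0.55 (SE 0.11) with 25(OH)D against control (edgeR adjusted p = 0.00607) and by 0.75 (SE 0.11) with BGP (0.000692). The first call was lost when those 2 groups were fitted alone (0.0997). Orai1, the store-operated calcium channel gene described as raising FGF23, rose by 0.86 ± 0.22 with 25(OH)D (adjusted p = 0.0263, lost without any 1 of the 6 libraries, up to 0.0773). It fell by 1.08 (SE 0.22) with ZK191784 against 25(OH)D alone (0.0151, lost without 3 of 6 libraries in turn, up to 0.0797). Sgk1, a kinase gene upstream of ORAI1, fell by 0.69 (SE 0.18) with BGP against control (0.0331). Nr4a3, a close relative of Nr4a2 named after its value was seen, rose by 1.42 ± 0.40 in that comparison (0.0470). Each of these 2 calls was lost without 4 of 6 libraries in turn (up to 0.120 for Sgk1 and 0.195 for Nr4a3) and with those groups fitted alone (0.182 and 0.147).

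In the list of FGF receptors, coreceptors and ligands (5 tested), 0 were called by edgeR in any of the 5 comparisons, with 0 or 1 at an unadjusted p under 0.05 in each, while DESeq2 called 1 for BGP against control. Klotho, the coreceptor that gives FGF23 its target cells, was too rare to test, with 8, 3, 10 and 13 summed counts of Kl with ZK191784, BGP, 25(OH)D and in control. The lists of inflammatory and iron regulators (7 tested) and of the hypoxia-inducible factor pathway (6 tested) had 0 calls by edgeR as well. In each, at most 1 gene was at an unadjusted p under 0.05 in a comparison, and DESeq2 called 1 gene of each list for 25(OH)D against control.

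Among 10 tested hypoxia target genes, 1 rose and 1 fell with 25(OH)D against control, and the same with BGP. Vegfa, the vascular growth factor gene, stood at 87.8, 72.8 and 44.4 CPM with ZK191784, 88.9, 368 and 139 with BGP, 295, 180 and 90.1 with 25(OH)D and 15.8, 19.4 and 33.5 in control. It rose by 3.12 ± 0.57 with BGP against control (edgeR adjusted p = 0.00405) and by 3.04 ± 0.57 with 25(OH)D (0.00449), calls lost with no filter on low counts (0.0544 and 0.0599). Ldha, the lactate dehydrogenase A gene, moved the other way. It averaged 395 ± 30.3 CPM with ZK191784, 363 ± 31.0 with BGP, 318 ± 16.7 with 25(OH)D and 711 ± 61.1 in control. It fell by 0.85 (SE 0.13) with ZK191784 (adjusted p = 0.00711), by 0.97 (SE 0.13) with BGP (0.000320) and by 1.16 (SE 0.13) with 25(OH)D (7.59e-05), each against control. The first of these calls was lost without ZK191784 library 2 (0.0725) and with those groups fitted alone (0.0843).

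Of 12 tested feedback and early-response genes of the ERK cascade downstream of FGF receptors, 2 rose with 25(OH)D against control, Dusp5 and Egr1. None was called lower, yet the median log2 difference of the 12 was −0.37, beside −0.05 over all tested genes. In all, 4 had an unadjusted edgeR p under 0.05. The others were Etv4 (log2 −1.20 ± 0.52, adjusted p = 0.216) and Spred1 (−0.47 ± 0.20, 0.193), both lower and not called. Dusp5, a nuclear ERK phosphatase gene, averaged 25.2 ± 3.39 CPM with ZK191784, 46.0 ± 4.86 with BGP, 43.8 ± 7.06 with 25(OH)D and 14.0 ± 0.941 in control. It rose by 1.64 ± 0.19 with 25(OH)D (edgeR adjusted p = 0.000110) and by 1.71 ± 0.19 with BGP (8.66e-05), each against control. Egr1, an immediate-early transcription factor gene, rose by 0.81 ± 0.15 with 25(OH)D (0.00322) and by 0.88 ± 0.15 with BGP (0.00193). With ZK191784 both were lower than with 25(OH)D alone, Dusp5 falling by 0.80 (SE 0.18, adjusted p = 0.0292) and Egr1 by 0.58 (SE 0.15, 0.0489). Each of these 2 calls was lost without 5 of 6 libraries in turn (up to 0.166 for Dusp5 and 0.224 for Egr1). Both were also lost with no filter on low counts (0.112 and 0.132) and when those groups were fitted alone (0.0890 and 0.0911).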

How the data were processed

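The authors deposited raw counts per gene and library. Per the submitters' processing notes, which give no roles, the tools were DESeq2 1.38.2, STAR 2.7.9a and featureCounts (Subread 2.0.3), and the build was mm39. Neither strand setting nor annotation is stated there, and overlapping antisense genes cannot be told apart. Low genes were dropped by edgeR's filterByExpr (minimum count 10, minimum total 15); the 14394 genes kept held 99.4% of all counts. edgeR 4.0.16 (R 4.3.3) fitted its quasi-likelihood model to all 12 libraries with TMM scaling, 1 coefficient per group and no block, and p-values were adjusted by Benjamini-Hochberg over all tested genes. SEs are approximate (the size of the log2 difference over the root of F), and the 95% interval uses the total degrees of freedom of the moderated fit (12.3 for Phex). CPM rest on reads at the 3' end and do not compare levels between genes.

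Fgf23 and Pcsk5 were too rare for the filter. Their counts were given exact Poisson intervals and ratios of summed counts exact binomial intervals on TMM library sizes (scipy 1.17.1). Differences were given exact permutation tests, 2-sided between pairs of groups only. The test was first planned for Fgf23, and Pcsk5 was added once it proved too rare.

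The members, the 8 other gene lists, the marker lists and the library ratio (89 ribosomal protein genes over 27238 pseudogenes and Gm-numbered genes) were chosen with earlier results of these data known. Named were all members, at most 4 called genes per list and comparison with the smallest p, Vdr, Dmp1 and Enpp1, and 5 genes per profile of likeness (prior count 2, or 0.5 added for Fgf23; average log2 CPM of at least 1 for Phex and Fam20c; no Gm-numbers, clone or pseudogene names). Promoter windows were taken from a RefSeq table that matched 8 of the 9 members, all but Fgfr1.

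The fit was tested on simulated counts. It recovered 12% of 2-fold and 58% of 4-fold planted changes for 25(OH)D against control (14222 genes), 21% and 69% for BGP against 25(OH)D (14270 genes), and 18% and 64% for ZK191784 against 25(OH)D (14292 genes). Alternatives were RLE scaling, DESeq2 1.42.0, no filter, a minimum of 2 CPM in 3 libraries, the compared groups alone, a replicate block, the library ratio as a covariate and leaving out each library. For the 88 other pathway genes they were chosen after seeing the data. Figures were drawn with matplotlib 3.10.9.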

Additional observations from a re-analysis of the deposited data

How the results depend on the processing

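The calls of Phex and Fam20c for 25(OH)D against control, for 25(OH)D with BGP against control and over the 4 groups were made under each alternative run, and no Fgf23 ratio changed its side of 1, though some of its intervals then held 1. With the library ratio as a covariate 4 members were called for 25(OH)D against control (2 in the fit without it), 2 for ZK191784 against 25(OH)D (1), 3 for ZK191784 against control (0), and 3 for BGP against control and over the 4 groups (2 in each). For ZK191784 against 25(OH)D DESeq2 and the fit with no filter called 2 members, the fit with a replicate block called 0 (Fam20c −0.87, adjusted p = 0.0675), and leaving out 1 library gave 0 to 1.

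Over all genes, the covariate gave 2857 calls for 25(OH)D against control, 6 for BGP against 25(OH)D, 1650 for ZK191784 against 25(OH)D, 2690 for BGP against control, 676 for ZK191784 against control and 2841 over the 4 groups. The compared groups alone gave 754, 705 and 39 calls for 25(OH)D, BGP and ZK191784 against control. DESeq2 gave 797 for ZK191784 against 25(OH)D, 264 for ZK191784 against control and 1663 over the 4 groups. No filter gave 220 for ZK191784 against control, and the replicate block gave 56 there and 334 for ZK191784 against 25(OH)D. Leaving out 1 library gave 813 to 1266 calls for 25(OH)D against control, 269 to 428 for ZK191784 against 25(OH)D and 34 to 119 for ZK191784 against control. The cause of these shifts was not tested.

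Directions turned only in differences that were not called. Galnt3 turned to 0.13 for BGP and 0.059 for ZK191784, each against control, with the covariate. Leaving out 1 library, its range was −0.40 to 0.26 for BGP and −0.36 to 0.28 for ZK191784 against control, that of Furin was −0.040 to 0.27 and −0.080 to 0.21 in the same comparisons, and that of Fgfr1 was −0.44 to 0.15 for BGP against 25(OH)D. Against 25(OH)D, Hif1a ranged −0.025 to 0.11 with BGP and −0.043 to 0.12 with ZK191784, and with BGP Nr4a2 ranged −0.13 to 0.40 and Phex −0.20 to 1.13.

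Replicate numbers gave little sign of pairing: 4 of 18 same-numbered pairs had correlated deviations over 0.1 (−0.71 to 0.61), and 3 of 12 libraries matched their own number best. These correlations cannot show whether same-numbered libraries shared a culture. Each group had 3 libraries, and the library ratio differed among same-numbered ones (−1.77 in control and −0.53 with 25(OH)D for number 1). Within replicate numbers (a replicate block) the Fgf23 exact permutation p over the 4 groups was 0.00347, against 0.000455 without. The exact permutation p with no block ran between 0.000455 and 0.0106 when any 1 library was left out. No Fgf23 ratio to control could be formed without control library 2, which held the only control count. With the replicate block calls of other pathway genes were also lost for Dusp5 (0.0861), Egr1 (0.0914) and C1galt1 (0.0900) with ZK191784 against 25(OH)D. So were those for Ank (0.0822) and Orai1 (0.0630) with 25(OH)D, and for Sgk1 (0.0908), Nr4a3 (0.0751) and Dmp1 (0.0521) with BGP, against control. Of all 72 other pathway genes tested, ZK191784 against 25(OH)D called 6, with 2 to 6 when 1 library was left out, 3 with the replicate block, 11 with DESeq2 and 22 with the covariate. At a common biological coefficient of variation of 0.292 most 2-fold changes would be missed, and counts of 0 to 7 limit Fgf23.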
